A study of Homo sapiens with 24 samples.

Results

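The genes of the proteasome were followed in 4 human cancer cell lines treated with Ocoxin, a nutritional supplement made of minerals, vitamins, amino acids and extracts of plants. They were chosen by name, as the protein-coding genes whose symbol begins with PSMA, PSMB, PSMC, PSMD, PSME, PSMF or PSMG and a number, and 50 of the 58051 genes counted met this rule. The same name pattern also fitted 42 processed pseudogenes, 1 transcribed processed pseudogene, 1 unprocessed pseudogene and 7 long non-coding RNAs, which were left out. The members were 8 alpha and 7 constitutive beta subunits of the 20S core, 4 inducible or tissue-specific beta subunits, 6 ATPases and 11 other subunits of the 19S cap, 5 activators or inhibitors, and 7 assembly factors. The remaining 2, PSMC3IP and PSME3IP1, are not parts of the proteasome, since they encode a recombination factor and a partner of an activator.

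The proteasome is the main protease of the cytosol and nucleus, and it degrades proteins that carry ubiquitin chains. Its 20S core is a barrel of alpha rings, which gate the entry, and beta rings, which hold the active sites. The 19S cap binds ubiquitin chains, and its ATPases unfold the substrate and thread it into the core. Under interferon, cells exchange the active beta subunits for inducible ones and make the PA28 activator, which changes the peptides available for class I antigen presentation. Transcription of the subunits is coordinated, and NFE2L1 raises it when proteasome activity falls.

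The cell lines were SW620 for colorectal adenocarcinoma (COAD), BxPC-3 for pancreatic adenocarcinoma (PAAD), LNCaP for prostate adenocarcinoma (PRAD) and HCC-70 for triple negative breast cancer (TNBC). Each gave 3 control and 3 Ocoxin libraries of polyadenylated RNA from adherent cells after 48 h, in medium with reduced serum. The dilution of Ocoxin was 50-fold in PRAD, 500-fold in PAAD and 700-fold in both TNBC and COAD, which were the only cell lines to share a dose. Each cancer was represented by 1 cell line, and nothing in the labels says whether the replicates were separate cultures, so the p-values measure only the spread between these libraries. Because RNA was taken in bulk, fewer cells of a state and less RNA per cell cannot be told apart.

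The libraries of COAD, PAAD and TNBC held between 25160757 and 39009959 counts, and those of PRAD, counted in a separate run, between 9063968 and 9520969. All 6 markers of LNCaP reached 1 CPM (counts per 1e6 counts, after TMM scaling) in PRAD, all 6 of BxPC-3 in PAAD and all 5 of HCC-70 in TNBC. In COAD, 4 of 6 colon markers did, with CDX1 and GPA33 below that level. All 6 BxPC-3 markers also reached 1 CPM in COAD and TNBC. The HCC-70 markers summed to more in PAAD (4760 to 6320 CPM per library) than in TNBC (2270 to 2580 CPM). The lists of LNCaP, SW620 and BxPC-3 summed highest in their own cell line. Among the receptors that define TNBC by their low levels, PGR stayed under 1 CPM but ESR1 and ERBB2 did not. SMAD4, which BxPC-3 is known to lack, had 0 CPM in every PAAD library.

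Ocoxin lowered the transcripts of the proteasome broadly in TNBC, by a small amount each. Fewer members were called lower in PAAD, and no member was called altered in COAD or PRAD. Fewer calls do not show a smaller response, and only PSMD3 differed between PAAD and TNBC when the responses were compared directly. A gene was called altered at an adjusted p under 0.05 in edgeR's quasi-likelihood F-test, with no minimum fold change. In TNBC, 27 of the 48 members tested were downregulated (56.2%) and 0 were upregulated, against 11.3% of all genes tested downregulated and 9.65% upregulated. In PAAD, 6 of 48 (12.5%) were downregulated and 0 were upregulated, against 3.62% and 4.72% of all genes. In both cell lines DESeq2 also called 0 members higher, and 0 higher members had an unadjusted p under 0.05 in edgeR. With the replicate number as a block, 21 members were downregulated in PAAD, against 11% of all genes, while 2 were without Ocoxin replicate 2 and 3 without Ocoxin replicate 1. In COAD the edgeR and DESeq2 tests each called 0 of 48 members, against 1.09% of all genes called lower and 1.47% called higher by edgeR. Of these 48 members, 5 had an unadjusted edgeR p under 0.05 (3 lower and 2 higher), against 16% of all genes tested. Without COAD control replicate 3, 1 member was called lower. In PRAD both tests called 0 of 46 members, against 0.58% and 2.4% of all genes by edgeR. Of these 46 members, 7 had an unadjusted edgeR p under 0.05 (6 lower and 1 higher), against 20.8% of all genes tested.

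The median log2 fold change of the members was −0.15 in TNBC, where the median level dropped by 9.9%. It was −0.12 in PAAD, and −0.03 in both COAD and PRAD, the former turning to 0.01 without COAD control replicate 3, while the median over all genes tested lay within 0.00879 of 0 in all 4 cell lines. The change was negative for 45 of 48 members in TNBC, 42 of 48 in PAAD, 34 of 48 in COAD and 36 of 46 in PRAD. All 3 Ocoxin libraries lay below all 3 controls for 35 members in TNBC (72.9%, against 19.8% of all genes) and for 19 in PAAD (39.6%, against 13.9%). The same held for 6 members in COAD (12.5%, against 10.4%) and 9 in PRAD (19.6%, against 12.4%). The smallest p that an exact permutation of 3 and 3 libraries allows for 1 gene is 0.1, and edgeR goes lower by pooling the spread over genes. The map of the fold changes by role shows these differences between the cell lines.

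**Figure D1:**
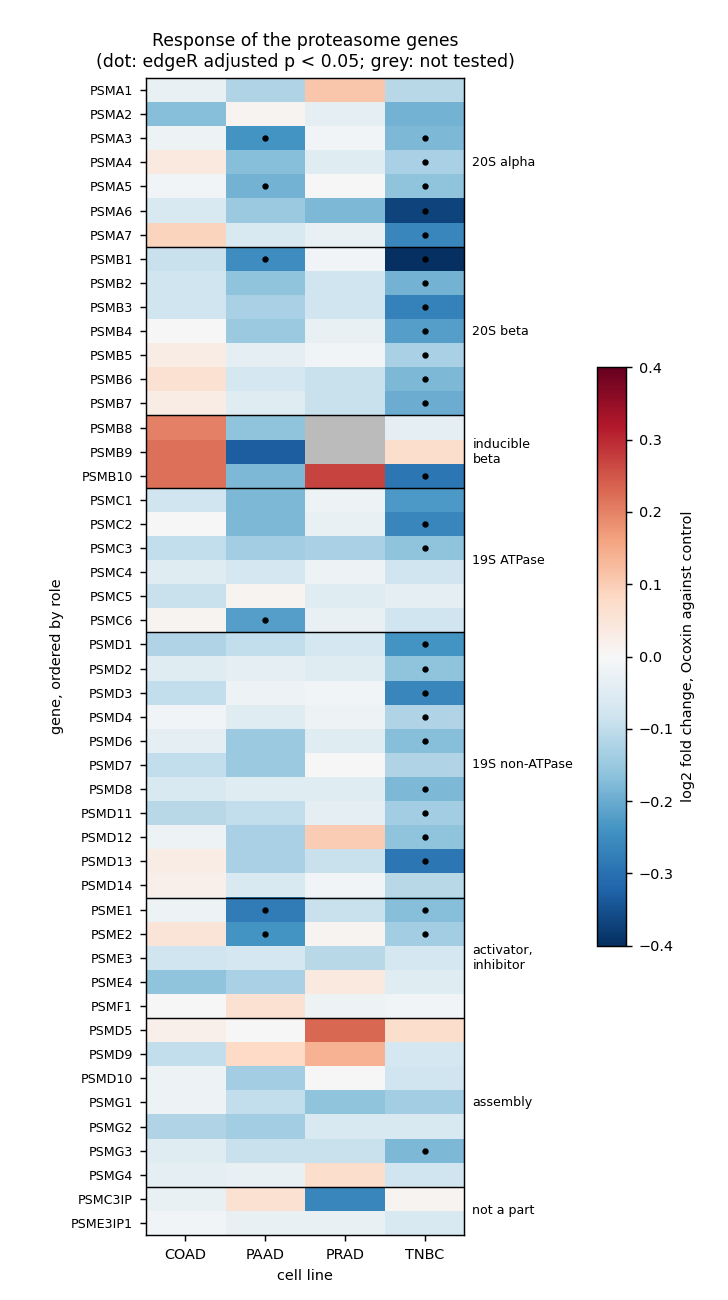
Log2 fold change of each tested proteasome gene with Ocoxin against control, as colour, with genes in rows ordered by role and the 4 cell lines in columns; a dot marks an edgeR adjusted p under 0.05 and grey a gene not tested. All 7 constitutive beta subunits and 9 of 11 non-ATPase 19S subunits carry a dot in TNBC, and no gene carries one in COAD or PRAD.

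In TNBC the decrease covered most of the alpha and constitutive beta subunits of the 20S core. All 7 constitutive beta subunits were downregulated there, with log2 fold changes from −0.4 to −0.13, and 5 of the 7 alpha subunits tested were. The summed level of the alpha and constitutive beta genes, without the inducible ones, was 1801, 1815 and 1797 CPM in the TNBC controls. With Ocoxin it was 1569, 1575 and 1552 CPM. The groups were far apart compared with their spread. In PAAD the sums were 2007, 1932 and 1875 CPM in controls and 1731, 1792 and 1766 CPM with Ocoxin, and these groups did not overlap either. In COAD the sums overlapped, with 1856, 1828 and 1980 CPM in controls and 1797, 1896 and 2001 CPM with Ocoxin. Replicate 3 stood highest in both COAD groups. In PRAD they overlapped slightly, with 1065, 1049 and 1051 CPM in controls and 1050, 1016 and 1013 CPM with Ocoxin.

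PSMB1, a constitutive beta subunit without a protease site of its own (ENSG00000008018, chr6:170535117-170553341 on hg38), changed most in TNBC. Its level was 140, 137 and 133 CPM in TNBC controls and 106, 105 and 98.9 CPM with Ocoxin. The log2 fold change was −0.4 ± 0.0428 (SE, n = 3 against 3; edgeR adjusted p = 6.2e-05), and every Ocoxin library was below every control. In PAAD it had 227, 208 and 208 CPM in controls and 182, 180 and 179 CPM with Ocoxin, a log2 fold change of −0.25 ± 0.0551 (edgeR adjusted p = 0.0105), and that call was lost without Ocoxin replicate 2 (adjusted p = 0.0635). In PRAD the controls had 78.4, 78.1 and 75.5 CPM and the Ocoxin libraries 80, 76.4 and 74.6 CPM, which overlapped. In COAD the controls had 99.3, 96.4 and 112 CPM and the Ocoxin libraries 87.9, 96.5 and 106 CPM, which overlapped as well.

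The constitutive active sites lie in PSMB5, PSMB6 and PSMB7, which cleave after hydrophobic, acidic and basic residues. PSMB5, the target of bortezomib (ENSG00000100804, chr14:23016543-23035230), had 176, 191 and 182 CPM in TNBC controls and 167, 169 and 166 CPM with Ocoxin. It fell by 8.7% (edgeR adjusted p = 0.0318), and this call was lost in 6 of 15 alternative analyses. PSMB6 had 78.8, 78.7 and 75.9 CPM in TNBC controls and 71.3, 71.3 and 64.2 CPM with Ocoxin (adjusted p = 0.0281), a call lost in 3 of 15. PSMB7 had 110, 110 and 111 CPM in controls and 96, 98.2 and 95 CPM with Ocoxin (adjusted p = 0.00389), and its call held in all 15. In all 3 genes the TNBC groups did not overlap. In the other cell lines none of the 3 was called, and their log2 fold changes lay between −0.09 and 0.06.

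Among the alpha subunits, PSMA7 and PSMA6 stood out by the rules used here, and PSMA3 and PSMA5 were called in both TNBC and PAAD. PSMA7 (ENSG00000101182, chr20:62136735-62143440) had 223, 213 and 230 CPM in TNBC controls and 183, 181 and 192 CPM with Ocoxin, without overlap. Its log2 fold change was −0.26 ± 0.0411 (edgeR adjusted p = 0.000989). In COAD, at the same dilution, it had 289, 289 and 310 CPM in controls and 296, 314 and 333 CPM with Ocoxin, a log2 fold change of 0.09 ± 0.0513 that was not called (adjusted p = 0.434). PSMA6 was measured at a low level, 12, 11.9 and 12.1 CPM in TNBC controls and 8.45, 9.9 and 9.59 CPM with Ocoxin. Its log2 fold change of −0.37 ± 0.0905 passed the test (adjusted p = 0.0128), except without Ocoxin replicate 1 (adjusted p = 0.0666). Of its exonic bases, 14.1% are shared with another gene and 4 pseudogenes of it are in the tables, so its value is uncertain. PSMA1 and PSMA2 were not called in any cell line and share 24.7% and 34.6% of their exonic bases with other genes.

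**Figure D2:**
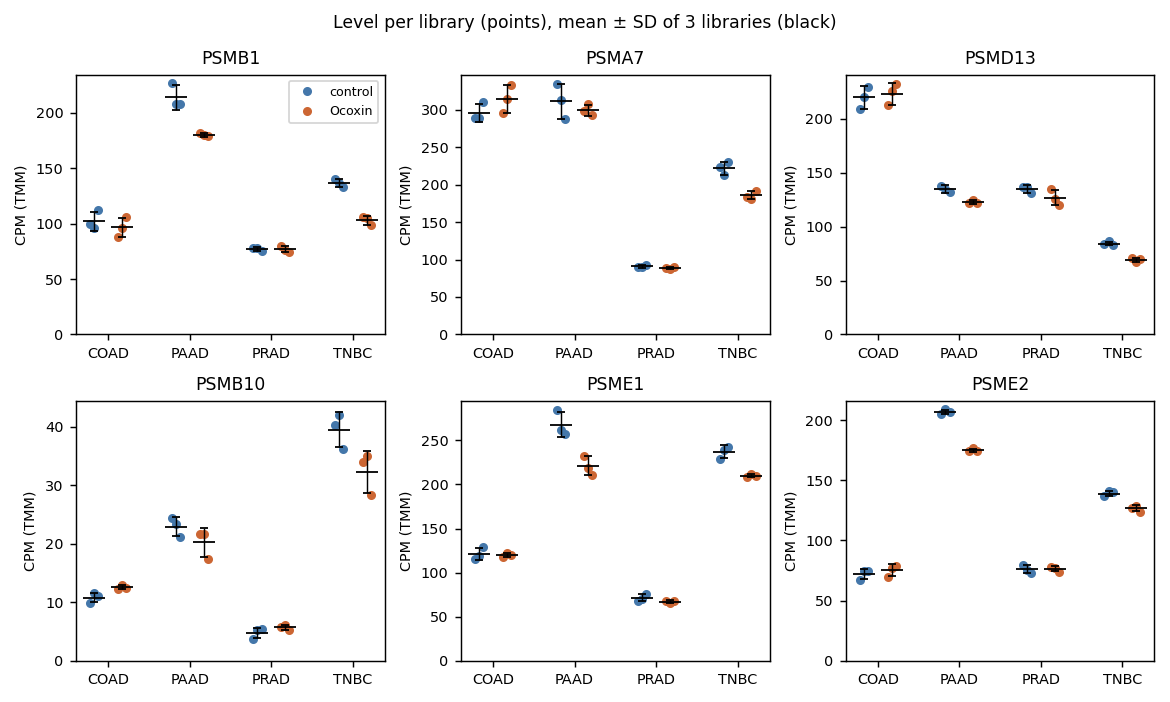
Level of 6 proteasome genes in CPM (vertical axis, from 0) in each control (blue) and Ocoxin (orange) library of the 4 cell lines, with the mean ± SD of 3 libraries in black. The TNBC groups are separate for all 6 genes. In PAAD those of PSMB1, PSMD13, PSME1 and PSME2 are separate too, and in COAD those of PSMB10, with Ocoxin higher.

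In the 19S cap of TNBC, 9 of the 11 non-ATPase subunits were downregulated (PSMD1, PSMD2, PSMD3, PSMD4, PSMD6, PSMD8, PSMD11, PSMD12 and PSMD13), and 2 of the 6 ATPases were (PSMC2 and PSMC3). PSMD7 and PSMD14, the pair that forms the deubiquitinase, were not called, with log2 fold changes of −0.12 and −0.11 (edgeR adjusted p = 0.0835 and 0.111). With the replicate block both passed (adjusted p = 0.0173 and 0.0137), and then all 11 non-ATPase subunits were called lower. The summed level of the 19S genes was 2474, 2494 and 2477 CPM in TNBC controls and 2229, 2227 and 2182 CPM with Ocoxin, without overlap. In PAAD the sums were 2207, 2233 and 2159 CPM in controls and 1994, 2081 and 2112 CPM with Ocoxin.

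PSMD13, a scaffold subunit of the cap (ENSG00000185627, chr11:236546-252984), had 83.9, 86.4 and 83 CPM in TNBC controls and 71, 67 and 69.8 CPM with Ocoxin. Its log2 fold change was −0.29 ± 0.0445 (edgeR adjusted p = 0.000847) in TNBC. In COAD it was 0.03 ± 0.051 (adjusted p = 0.866), with 209, 220 and 230 CPM in controls and 213, 226 and 232 CPM with Ocoxin, and those groups overlapped. PSMC6, an ATPase, was the 1 member called in PAAD and not in TNBC. It had 97.9, 93.1 and 98.9 CPM in PAAD controls and 80.9, 78.1 and 89.8 CPM with Ocoxin (adjusted p = 0.0444). In TNBC it had 76.3, 76.3 and 70.1 CPM in controls and 70.7, 71.6 and 68.9 CPM with Ocoxin (adjusted p = 0.299), and the direct comparison of its response in both cell lines did not pass (adjusted p = 0.475). PSMC1 shares 75.8% of its exonic bases with NRDE2 and has 13 pseudogenes in the tables, so its low counts do not give its level. PSMC6, PSMD7, PSMD14 and PSMC1 are named here after their values were seen. The same holds for other members named in the text outside the rules for naming, such as PSMA3, PSMA5, PSMC3, PSMD1, PSMD5, PSME4, PSMG1 and PSMG3.

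Of the inducible beta subunits, PSMB10 was downregulated in TNBC and PSMB8 and PSMB9 were not called, while the log2 fold changes of all 3 were negative in PAAD, from −0.33 to −0.16, and positive in COAD, from 0.2 to 0.22, with none called. PSMB10, the inducible counterpart of PSMB7 (ENSG00000205220, chr16:67934502-67937087), had 40.2, 42 and 36.2 CPM in TNBC controls and 33.9, 34.9 and 28.3 CPM with Ocoxin. Replicate 3 was the lowest of each group, and the groups did not overlap. Its log2 fold change was −0.29 ± 0.0822 (edgeR adjusted p = 0.0269), which no longer passed without control replicate 1 or without control replicate 2 (adjusted p up to 0.121). In COAD it had 9.88, 11.5 and 11 CPM in controls and 12.3, 13 and 12.4 CPM with Ocoxin, all above the controls, with a log2 fold change of 0.22 that was not called (adjusted p = 0.275). In PAAD it had 24.4, 23.3 and 21.2 CPM in controls and 21.7, 21.6 and 17.4 CPM with Ocoxin, which overlapped (log2 fold change −0.18, adjusted p = 0.284, and 0.0548 with the block). Of its exonic bases 34.8% overlap another gene.

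PSMB8, the counterpart of PSMB5 (ENSG00000204264, chr6:32840717-32844703), had 105, 103 and 101 CPM in TNBC controls and 99.6, 102 and 99.8 CPM with Ocoxin, which overlapped (adjusted p = 0.578). PSMB9, the counterpart of PSMB6 (ENSG00000240065, chr6:32844136-32859585), had 67.2, 71.1 and 53.7 CPM in TNBC controls and 69, 67.1 and 66 CPM with Ocoxin (adjusted p = 0.626), and control replicate 3 lay apart from the other libraries; without it the log2 fold change went from 0.07 to −0.04. In PAAD, PSMB9 had 28.8, 27.8 and 26.2 CPM in controls and 21.9, 25.8 and 18.1 CPM with Ocoxin. Every Ocoxin library was lower, but the log2 fold change of −0.33 ± 0.106 missed the threshold (adjusted p = 0.0659), and with the replicate block it passed (adjusted p = 0.000747). PSMB8 in PAAD had 55, 48.7 and 48.3 CPM in controls and 46.7, 42.3 and 46.5 CPM with Ocoxin (adjusted p = 0.184, and 0.0198 with the block). In COAD, PSMB8 had 20.8, 22.3 and 25.2 CPM in controls and 23.8, 28.2 and 26.5 CPM with Ocoxin (log2 fold change 0.2, adjusted p = 0.239, and 0.0397 with the block). PSMB9 in COAD was low, with 1.75, 2.34 and 3.92 CPM in controls and 3.06, 2.52 and 3.8 CPM with Ocoxin (adjusted p = 0.741). In PRAD both genes were under the filter, with 0 to 6 counts per library for PSMB8 and 5 to 12 for PSMB9.

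The cell lines differed in how much of the active beta subunits was of the inducible kind. Per kilobase of exon, PSMB8, PSMB9 and PSMB10 made up 29.9% ± 1.06 (SD, n = 3) of the summed level of PSMB5 to PSMB10 in TNBC controls and 17.2% ± 0.473 in PAAD controls. The share was 6.14% ± 0.381 in COAD controls and 1.88% ± 0.298 in PRAD controls, so no neighbours in this order overlapped. In COAD, PAAD and TNBC the share may be too low because of exon overlap, but its net error was not tested. Of the exonic bases, 21.2% of PSMB8 and 34.8% of PSMB10 overlap other genes, whose reads featureCounts left out. PRAD was counted in a separate run, with at most 0.995 counts per exonic base for any gene and 0.55 for PSMB7. Its share may be off in either direction and is not directly comparable with those of the other cell lines. With Ocoxin the share was 31.3% ± 0.173 in TNBC, 15.8% ± 0.764 in PAAD, 6.84% ± 0.132 in COAD and 2.47% ± 0.22 in PRAD. It was above the controls in all 3 libraries of TNBC, COAD and PRAD and below them in all 3 of PAAD, which is given as a description without a test.

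**Figure D3:**
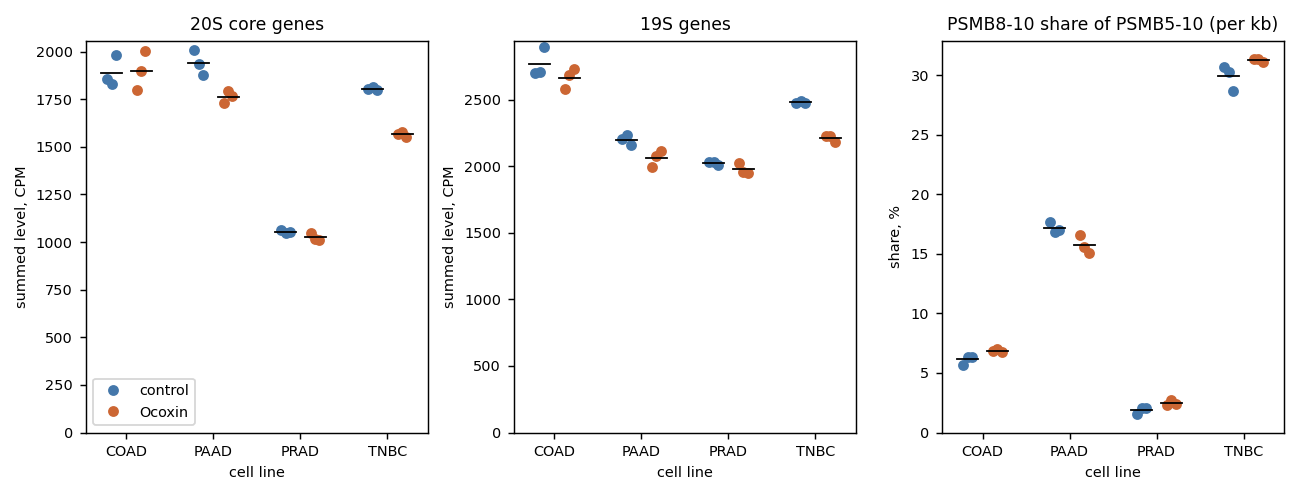
Summed level in CPM of the 20S core genes and of the 19S genes, and the share in percent of PSMB8, PSMB9 and PSMB10 in the per-kilobase level of PSMB5 to PSMB10 (vertical axes, from 0), for each control (blue) and Ocoxin (orange) library, with group means as lines. The 20S core sum holds the alpha and constitutive beta genes, without the inducible or tissue-specific ones. The 20S sums of TNBC fall from between 1797 and 1815 to between 1552 and 1575 CPM. The inducible share is 29.9% in TNBC controls and 17.2% in PAAD controls. PRAD was counted in a separate run, so its share is not directly comparable.

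The PA28 activator showed the decrease in both PAAD and TNBC. PSME1 and PSME2 encode its alpha and beta subunits, which open the core without ubiquitin and are induced by interferon. PSME1 (ENSG00000092010, chr14:24136158-24138967) had 284, 262 and 257 CPM in PAAD controls and 232, 219 and 211 CPM with Ocoxin, without overlap. The log2 fold change was −0.28 ± 0.0581 (edgeR adjusted p = 0.00751). In TNBC it had 229, 239 and 243 CPM in controls and 208, 212 and 210 CPM with Ocoxin, and fell by 0.17 ± 0.0365 on the log2 scale (adjusted p = 0.00523). PSME2 (ENSG00000100911, chr14:24143362-24147570) had 205, 209 and 207 CPM in PAAD controls and 174, 177 and 174 CPM with Ocoxin, again without overlap. Its log2 fold change was −0.24 ± 0.0508 (adjusted p = 0.00832), a call lost without Ocoxin replicate 2 (adjusted p = 0.0506). In TNBC it had 137, 141 and 140 CPM in controls and 127, 129 and 124 CPM with Ocoxin (adjusted p = 0.0208), a call lost in 4 of 15 alternatives. In COAD neither gene was called, and PSME1 had 116, 119 and 129 CPM in controls and 118, 122 and 120 CPM with Ocoxin. PSME2 has 6 pseudogenes in the tables. The other activators, PSME3 and PSME4, and the inhibitor PSMF1 were not called in any cell line.

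Of the 7 assembly factors only PSMG3 was called, and only in TNBC, with 65.9, 69.9 and 62.6 CPM in controls and 58, 59.2 and 58.3 CPM with Ocoxin (edgeR adjusted p = 0.0255). PSMG1, which guides alpha ring assembly, was not called in TNBC (adjusted p = 0.0562, and 0.0183 with the block). PSMD5, which holds ATPases during assembly of the cap, was among the 3 members with a positive change in TNBC, 0.07 on the log2 scale (adjusted p = 0.3). PSMC3IP and PSME3IP1, which are not parts of the proteasome, were not called in any cell line. PSMC3IP had its largest difference in PRAD, from 31.2, 25 and 28.4 CPM in controls to 21.9, 23.7 and 24.8 CPM with Ocoxin (adjusted p = 0.195). PSMA8 and PSMB11, the subunits of testis and thymus, had 0 to 1 and 0 to 2 counts per library and were not tested.

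Of the 6 members downregulated in PAAD (PSMA3, PSMA5, PSMB1, PSMC6, PSME1 and PSME2), 5 were also among the 27 downregulated in TNBC. The 21 members called in PAAD with the replicate block included 14 of those 27. In COAD, PSME4 and PSMD1 had the smallest p-values of the members, with log2 fold changes of −0.16 and −0.12 (edgeR adjusted p = 0.123 and 0.188), and both passed with the replicate block (adjusted p = 0.00412 and 0.0281).

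Whether the responses differed between the cell lines was tested in a fit of all 24 libraries. By an F-test of the 3 terms for cell line and treatment, 6 of 48 members differed, against 10.9% of all genes tested, so their share was near that of genes in general. The 6 were PSMA7, PSMB1, PSMD13, PSME2, PSMB10 and PSMC2. With the replicate block 19 members differed, against 23.3% of all genes. COAD and TNBC received the same dilution, and the response was less negative in COAD for 42 of 48 members, with a median difference of 0.14 on the log2 scale. This difference passed for 8 members (PSMA7, PSMB1, PSMB4, PSMB6, PSMB7, PSMB10, PSMC2 and PSMD13), against 4.1% of all genes with a positive difference. It was 0.36 ± 0.0729 for PSMA7 (edgeR adjusted p = 0.00182), 0.33 ± 0.0825 for PSMB1 (adjusted p = 0.0113), 0.32 ± 0.0693 for PSMD13 (adjusted p = 0.00289) and 0.52 ± 0.138 for PSMB10 (adjusted p = 0.017). The number of members that differed by the F-test rose to 14 without COAD control replicate 3 and to 11 without COAD Ocoxin replicate 1, and it was 10 without PAAD control replicate 1 or without PAAD control replicate 3.

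**Figure D4:**
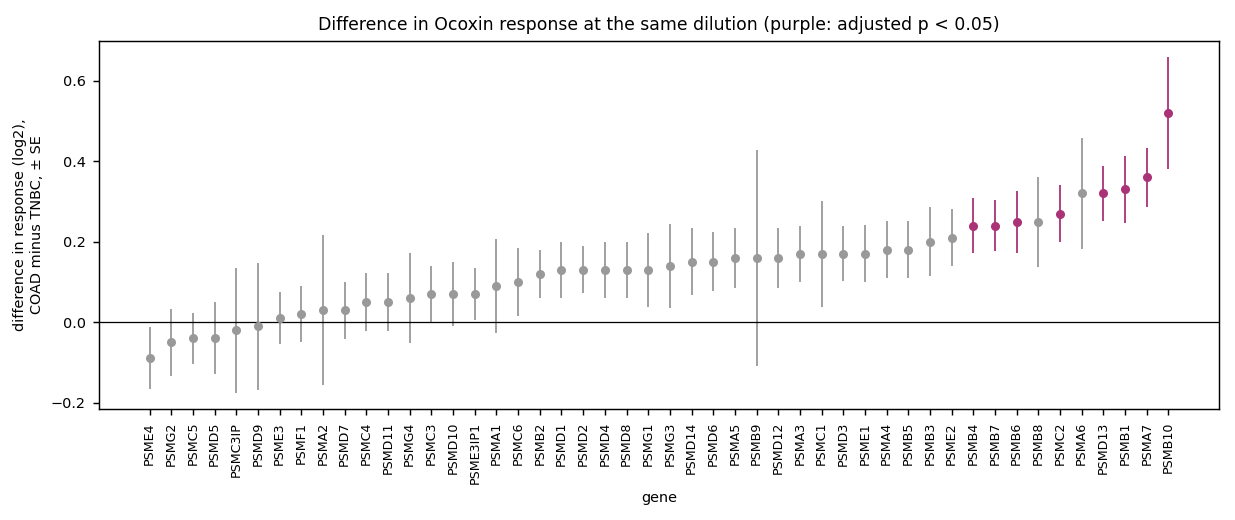
Difference in the log2 response to Ocoxin between COAD and TNBC for each tested gene (points, ± SE; purple marks an edgeR adjusted p under 0.05), ordered by size; values above 0 mean a less negative or more positive response in COAD. Of 48 genes 42 lie above 0, and PSMB10 has a difference of 0.52.

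The other pairs of cell lines differed in dilution as well, so cell line and dilution cannot be told apart in them. PSME1 and PSME2 were the 2 members whose response differed between COAD and PAAD, by 0.27 ± 0.0714 and 0.3 ± 0.0701 (edgeR adjusted p = 0.0311 and 0.0124), against 1.66% of all genes with a positive difference. Between PAAD and TNBC only PSMD3 differed, by 0.24 ± 0.0694 (adjusted p = 0.0397), against 2.6% of all genes. Between PRAD and TNBC only PSMB1 differed, by 0.38 ± 0.0891 (adjusted p = 0.0106), against 2.05% of all genes. By edgeR 0 members differed between PAAD and PRAD and 0 between COAD and PRAD, with 7 and 3 members at an unadjusted p under 0.05. For these pairs the share of all genes at that unadjusted level was not computed.

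Counts per exonic base stayed at or under 0.995 for all genes in PRAD, and the members reached at most 0.55 (PSMB7), with a median of 0.246. After a correction for reads that share a start, still 0 of 46 members were called, and their median log2 fold change was −0.04. An unadjusted p under 0.05 was found for 8 of them, and the share of all genes at that level was not computed. With the dependence on gene length taken out, 6 members were called lower (PSMB2, PSMB7, PSMC3, PSMD1, PSME3 and PSMG1), against 7.28% of all genes, and the median of the members was −0.11. PSMC3, an ATPase, had 110, 113 and 113 CPM in controls and 105, 102 and 101 CPM with Ocoxin (adjusted p = 0.123, and 0.0228 with the trend removed).

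Genes that work with the proteasome were read from fixed lists, and their counts were not tested against the 11.3% lower and 9.65% higher of all genes in TNBC or the 3.62% and 4.72% in PAAD. The median log2 fold change in TNBC was −0.05 over the partners, −0.07 over the shuttle and p97 genes and −0.01 over the genes of transcriptional control, against 0.00556 over all genes. Of 11 partners, POMP, the chaperone that completes the core, was downregulated in PAAD and TNBC, and SEM1, a small cap subunit, in TNBC. POMP had 62.6 ± 3.07 CPM in TNBC controls and 51.2 ± 1.3 CPM with Ocoxin (SD, n = 3 each; edgeR adjusted p = 0.00189), and in PAAD 118 ± 2.72 and 99.6 ± 2.6 CPM (adjusted p = 0.0118). In COAD it had 54.4 ± 1.85 and 53.9 ± 3.87 CPM (adjusted p = 0.95). UBB, which encodes ubiquitin, was downregulated in TNBC, with 146 ± 4.66 CPM in controls and 127 ± 1.84 CPM with Ocoxin (adjusted p = 0.00408), and was not called in the other cell lines. Of 10 shuttle and p97 genes, VCP, NSFL1C and UFD1, parts of the p97 segregase, were downregulated in TNBC, while UBQLN2, a shuttle, was upregulated. VCP had 783 ± 10.3 CPM in TNBC controls and 686 ± 20.1 CPM with Ocoxin (adjusted p = 0.00168).

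Of 8 genes that control proteasome transcription, NFE2L1 and DDI2, the protease that activates its product, rose in TNBC while the subunits fell. NFE2L1 had 415 ± 8.21 CPM in TNBC controls and 453 ± 5.11 CPM with Ocoxin (edgeR adjusted p = 0.0179), and DDI2 had 122 ± 4.87 and 138 ± 3.19 CPM (adjusted p = 0.00909). NFE2L2, which encodes NRF2, was not called in any cell line. MAFF, a small partner of both factors, was downregulated in TNBC and upregulated in COAD, and MAFG was upregulated in PAAD. Among genes of class I antigen processing and interferon control, B2M and HLA-B rose in COAD, while ERAP1 fell in PAAD. In PRAD ERAP1 and NLRC5 rose, and in TNBC IRF1 fell while NLRC5 and STAT2 rose.

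The promoters of the members were searched for 4 motifs on both strands, from 250 bases before to 50 after the start in the RefSeq table (GRCh38.p14), which held 42 of the 48 proteasome parts. The core of the antioxidant response element bound by NFE2L1 and NFE2L2, TGACNNNGC, was in 31.0% of them and in 13.6% of all 27305 promoters. The interferon-stimulated response element (ISRE; GAAA, any 2 bases, GAAA) was in 14.3% and 3.65%, the ETS core CCGGAAGT in 19% and 4.44%, and CCAAT in 45.2% and 35.7%. No match of 1 motif overlapped a match of another. Of the members called in TNBC 21 had a promoter in the table and 6 of these held TGACNNNGC, against 7 of 19 tested and not called, and 5 of the 21 held the ISRE, against 1 of the 19. The stretches below show the former motif, in capitals, in promoters of members downregulated in TNBC, each 5′ to 3′ on the strand of the gene.
PSMB3, chr17:38752617-38752665, plus strand: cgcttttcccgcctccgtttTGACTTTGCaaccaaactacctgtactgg
PSMD3, chr17:39980750-39980798, plus strand: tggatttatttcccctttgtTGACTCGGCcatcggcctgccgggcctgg
PSMD12, chr17:67366714-67366762, minus strand: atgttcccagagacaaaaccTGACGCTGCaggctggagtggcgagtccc
PSME1, chr14:24136088-24136136, plus strand: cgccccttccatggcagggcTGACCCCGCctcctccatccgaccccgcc

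The ISRE, in capitals below, stood close before the RefSeq start of PSMB10 and PSME2. For both genes this start lies inside the span given above. Both were downregulated in TNBC, and PSME2 was in PAAD too.
PSMB10, chr16:67936851-67936891, minus strand: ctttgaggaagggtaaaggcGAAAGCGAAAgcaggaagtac
PSME2, chr14:24146611-24146658, minus strand: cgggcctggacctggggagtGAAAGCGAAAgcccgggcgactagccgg

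It began 21 bases before the RefSeq start of PSMB10 and 28 bases before that of PSME2, with the same 10 letters in both. PSMG4, which was not called in any cell line, held the same letters 33 bases before its RefSeq start. A match describes these letters only and says nothing about binding.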

How the data were processed

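Reads were trimmed (fastp), aligned to hg38 (STAR) and cleared of PCR duplicates (picard) by the authors, and those on exons were counted with featureCounts 2.0.3 (per the file headers, without strand). The deposited values are raw counts per gene, with PRAD in a separate table made without the paired-end option, while in the other table a fragment could give more than 1 count. Multi-overlapping reads were not assigned. Members and lists were chosen with earlier results of these data known. Genes were filtered with filterByExpr, scaled by TMM and tested per cell line with the robust quasi-likelihood F-test of edgeR 4.0.16 (R 4.3.3; two-sided, Benjamini-Hochberg over all genes tested), leaving 17659, 17280, 17070 and 17352 genes in COAD, PAAD, PRAD and TNBC. Levels are TMM-scaled CPM. Differences between cell lines came from 1 fit of 24 libraries. The code was tested on simulated data. Named were the catalytic and inducible beta subunits, up to 3 called members per direction and cell line with the largest change, at least 1 CPM and no overlap, the 5 smallest p for a difference between cell lines, the non-proteasome members and the untested members. Alternatives were DESeq2 1.42.0, other filters and scalings, gene length correction, the replicate block and each library left out. Over genes of at least 10 CPM, same-numbered control and Ocoxin libraries deviated together in PAAD, PRAD and TNBC (lowest correlation 0.314, 0.176 and 0.285). In COAD not all pairs did (0.0812). Pairs of different numbers reached 0.211 in PAAD, 0.137 in PRAD, 0.346 in TNBC and 0.408 in COAD. In TNBC that is above the lowest same-numbered value. The pairing is only a hint from the data, since the labels give only the number. Some genes of the pathway lists are not reported here.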

Additional observations from a re-analysis of the deposited data

Results flagged for a closer look

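The response to Ocoxin differed between the 4 cell lines for 6 of 48 proteasome genes by edgeR's F-test of the interaction, near the 10.9% of all genes that did, with 3 control and 3 Ocoxin libraries per cell line. The number ran from 4 to 14 with 1 library left out. The adjusted p was 0.00755 for PSMA7, 0.00774 for PSMB1, 0.0123 for PSMD13, 0.0151 for PSME2, 0.0257 for PSMB10 and 0.028 for PSMC2. The dilution of Ocoxin also differed between the cell lines, except between COAD and TNBC.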

How the results depend on the processing

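The number of members called lower in TNBC stayed between 18 and 25 with each library left out, and was 15 at an adjusted p under 0.01. In PAAD it was 21 with the replicate block, 10 with the length trend removed, 2 at an adjusted p under 0.01, and 2 to 9 with a library left out, 3 without Ocoxin replicate 1 and 2 without Ocoxin replicate 2. In COAD the block gave 2 lower and 1 higher, and leaving out a library gave 0 to 1. In PRAD removal of the length trend gave 6 lower. Members whose response differed between cell lines numbered 19 with the replicate block, 13 with at least 10 counts in every library, and 4 to 14 with a library left out, 10 without PAAD control replicate 1 or 3. The cause of these shifts was not tested. Of all alternative values, over counts, medians and named genes together, 765 were classed as the same and 17 as moved. For named genes, a call was gained in 10 values and lost in 18. The sign changed for 17 values of named genes, between −0.07 and 0.03 on the log2 scale, and 0 of these were called in either analysis. The median depth was 9259863 counts in PRAD and 30467744 or more elsewhere.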
